A study of Mus musculus with 12 samples.

Results

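The classical acute phase proteins are described here from 10 genes of a mouse liver RNA-seq table: the serum amyloid A genes Saa1, Saa2, Saa3 and Saa4, the orosomucoid genes Orm1, Orm2 and Orm3, and Lcn2, Hp and Itih3. Their rows were taken by gene name, from a set drawn up with earlier results of these data known, and all 10 names were found among the 57180 genes of the table and among the 19350 genes with enough reads to test. Livers came from 12 mice, with 3 females and 3 males in each of the groups labelled KO and Het. All of the mice lack Csa, the Cockayne syndrome gene that the annotation lists as Ercc8, and all had been given AAV9-CSA into the brain ventricles as newborns, a vector in which the ubiquitously active chicken beta-actin promoter drives a human CSA cDNA. The KO mice were the affected animals, called CX in the paper, which were taken once severely ill. The Het mice were treated littermates of the same age. Because the KO livers were collected at that humane endpoint, the genotype and the terminal state of the animal cannot be told apart in these data, and ages are not in the labels. The series' design text writes the KO genotype as Csa-/-;Xpa+/+ and that of Het as Csa-/-;Xpa+/-, and the paper's RNA-seq methods give the same genotypes, whereas its results describe CX mice as Csa-/- Xpa-/-, so the livers were grouped by the labels KO and Het alone. Single livers are named by group, sex (F or M) and mouse number.

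Acute phase proteins are plasma proteins that the liver releases in altered amounts during infection, injury or other systemic stress. Interleukin 6 and its relatives act on hepatocytes through the shared receptor chain encoded by Il6st and the transcription factor STAT3, while interleukin 1 and tumor necrosis factor act largely through NF-kB, and C/EBP factors and glucocorticoids act with both on many of these genes. Most of the genes described here are known as positive members of the response, and Saa4 is known as the serum amyloid A gene that is expressed constitutively.

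Over both sexes, 7 of the 10 genes were higher in KO than in Het livers, namely Saa2, Orm1, Orm2, Orm3, Lcn2, Hp and Itih3, and 1, Saa4, was lower (edgeR quasi-likelihood test, adjusted p under 0.05). Of all genes tested, 21.6% passed the same threshold, with 11.8% higher and 9.8% lower in KO. The rises ran from 1.76-fold for Orm1 to 25.6-fold for Lcn2. Saa1 and Saa3 did not pass. The median log2 fold change of the 10 genes was 1.01, against 0.02 over all genes tested. In CPM, the share of a library that a gene takes up after scaling between libraries, all 6 KO livers lay above all 6 Het livers for Orm1, Orm2, Orm3, Lcn2, Hp and Itih3 and below them for Saa4, a separation that 9.35% of tested genes showed, 4.72% upward and 4.64% downward. Together the 10 genes made up 0.169 ± 0.0311% (SD, n = 6) of all TPM, the transcript abundance per unit of length, in Het livers and 0.352 ± 0.0457% (n = 6) in KO livers.

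**Figure D1:**
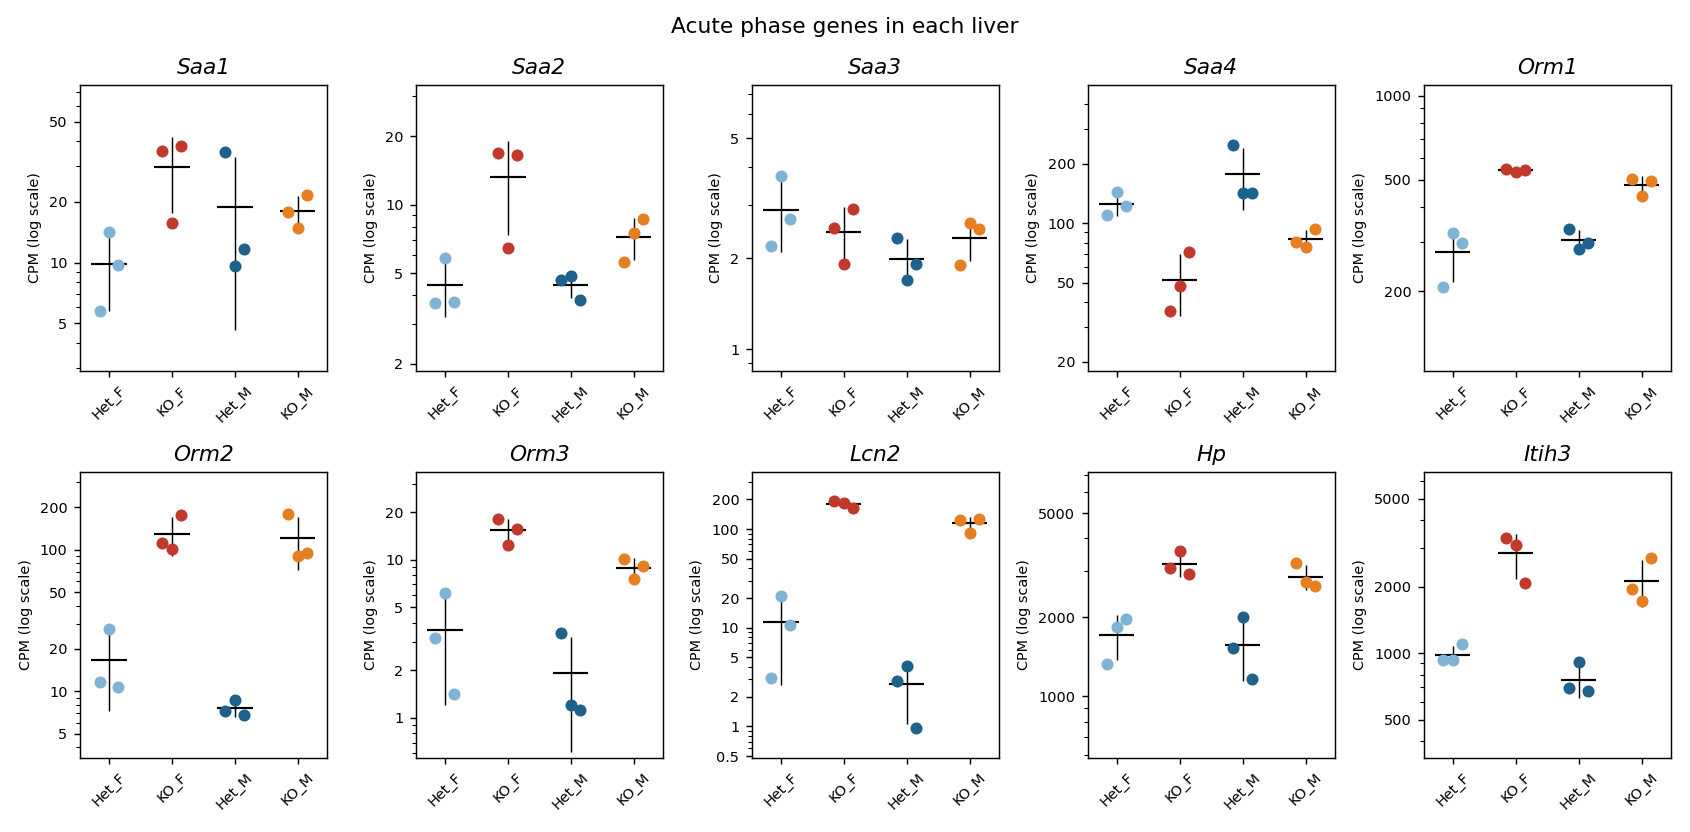
CPM of each of the 10 genes on a log axis, with 1 point per liver, a horizontal bar at the mean of the 3 livers of a group and a vertical line of ± 1 SD. For Lcn2 the KO livers lie between 92.3 and 191 CPM and the Het livers between 0.96 and 20.8, whereas for Saa3 the groups overlap.

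**Figure D2:**
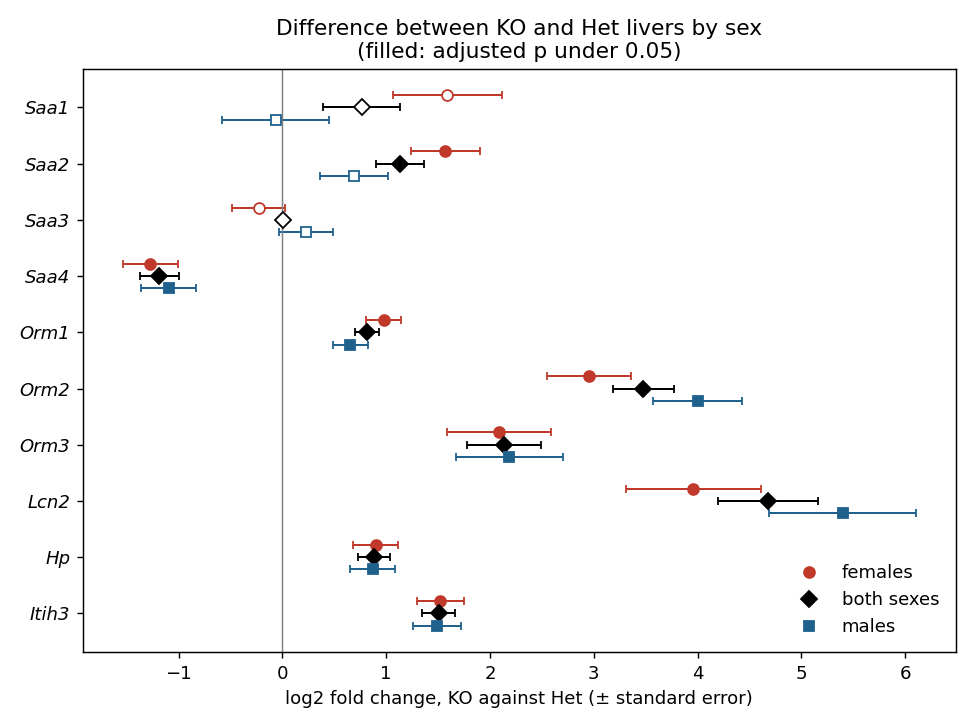
Log2 fold changes of KO against Het for the 10 genes with standard errors, for females (circles), males (squares) and both sexes (diamonds), where filled symbols passed an adjusted p of 0.05. Lcn2 and Orm2 lie farthest to the right and Saa4 alone lies to the left with filled symbols, and no error bar is drawn for Saa3 over both sexes.

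A few facts of the whole series bear on these values. The libraries held 30044812 to 43634073 counts in genes, and the small noncoding RNA genes Rn7s1, Rn7s2 and Rn7sk took 50.04% to 59.9% of TPM, so the TPM of every other gene depends on that share, and TPM is used below to compare genes per length. Xpa, which codes for a protein of nucleotide excision repair, gave 3.10 to 6.34 CPM in Het and 0.992 to 1.83 CPM in KO livers (log2 fold change -1.83, edgeR adjusted p = 6.26e-05), and Ercc8 gave 5.10 to 8.68 CPM in Het and 14.8 to 33.997 CPM in KO livers (log2 fold change 1.62, edgeR adjusted p = 0.000173). Xpa was thus lower in the group that the design text writes as Xpa+/+ than in the group it writes as Xpa+/-. A count per gene can hold reads from outside a deleted part, and the labels do not say what was deleted.

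The serum amyloid A genes lie together on chromosome 7 of GRCm39: Saa3 at chr7:46361422-46365576, Saa4 at chr7:46377406-46382035 and Saa1 at chr7:46389916-46392547 on the minus strand, and Saa2 at chr7:46401214-46403737 on the plus strand. Saa1 and Saa2 code for the inducible serum amyloid A proteins that travel in plasma on high-density lipoprotein, and the pair is similar enough that reads can fit either gene. The deposited counts are estimates in which shared reads are divided between genes, and they were not whole numbers in 8 of 12 livers for each of this pair, so the separate values are uncertain. Because these genes lie side by side and 2 of them are near copies, the 250 bases before the start of Saa1, Saa2 and Saa4 are shown, as RefSeq gives them for GRCm38.p6, with capitals on the letters TTGCNNAA, a short form of the sequence that C/EBP factors are known to bind, on either strand.
Saa1 (chr7:46742981-46743230, minus strand): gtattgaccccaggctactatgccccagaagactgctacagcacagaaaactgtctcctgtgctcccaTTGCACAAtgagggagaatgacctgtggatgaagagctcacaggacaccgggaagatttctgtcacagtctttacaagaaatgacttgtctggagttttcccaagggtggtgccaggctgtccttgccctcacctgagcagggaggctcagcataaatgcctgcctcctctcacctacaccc
Saa2 (chr7:46751583-46751832, plus strand): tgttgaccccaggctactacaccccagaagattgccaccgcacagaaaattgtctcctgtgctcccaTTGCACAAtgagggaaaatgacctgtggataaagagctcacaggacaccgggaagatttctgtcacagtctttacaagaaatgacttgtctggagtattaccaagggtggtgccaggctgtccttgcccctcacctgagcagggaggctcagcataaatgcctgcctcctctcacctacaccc
Saa4 (chr7:46732604-46732853, minus strand): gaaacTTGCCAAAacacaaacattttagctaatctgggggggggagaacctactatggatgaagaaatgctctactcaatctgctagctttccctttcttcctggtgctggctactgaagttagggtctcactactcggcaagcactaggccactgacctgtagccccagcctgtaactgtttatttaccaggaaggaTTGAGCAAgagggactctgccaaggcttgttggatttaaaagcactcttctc

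In a global alignment with gaps, the windows of Saa1 and Saa2 were identical at 95.2% of 250 columns, with 1 gap base, and both held TTGCACAA, at -182 to -175 in Saa1 and at -183 to -176 in Saa2, counted from the transcription start. Saa4 held TTGCCAAA at -245 to -238 and, as a match on the other strand, TTGAGCAA at -52 to -45. Of the 10 genes, 8 had a window in the RefSeq table, and 7 of these held a match to TTGCNNAA (Itih3 did not), against 9.56% of all 32851 windows of the same length, though windows of near copies are not independent of each other. Orm1 and Hp had no entry. Other sets of letters were searched on both strands in the same 8 windows with no match: TTCNNNGAA for STAT factors, present in 7.02% of all windows, a motif of 10 letters for NF-kB (GGG, 2 free bases, TT, 1 free base, CC), in 4.11%, and a motif of 13 letters for the glucocorticoid receptor (G, 1 free base, ACA, 3 free bases, TGT, 1 free base, C), in 0.387%. Shares this low leave few or no matches to be found in 8 windows, so their lack is not a result about these genes. A match is a run of letters and not a measured binding site, and none of these searches measured a factor.

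Saa2 was measured at 3.72, 5.87 and 3.74 CPM in Het females, 4.67, 4.88 and 3.84 CPM in Het males, 16.8, 6.47 and 16.5 CPM in KO females and 5.64, 7.49 and 8.65 CPM in KO males. Of the KO females, KO_F_108 and KO_F_123 stood above the other KO livers. KO livers exceeded Het livers within each sex, but across the sexes the groups touched, since Het_F_115 lay above KO_M_118. The gene rose with a log2 fold change of 1.13 (SE 0.23, edgeR adjusted p = 0.0064).

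Saa1 gave 5.78, 14.1 and 9.76 CPM in Het females and 35.4, 9.66 and 11.7 CPM in Het males, against 35.9, 15.7 and 38.1 CPM in KO females and 17.9, 14.9 and 21.5 CPM in KO males. The Het male Het_M_119 lay close to the highest KO livers, and the groups overlapped in males but not in females. The log2 fold change over both sexes was 0.76 (SE 0.37, 95% interval -0.05 to 1.58, edgeR adjusted p = 0.167), which did not pass. Of the 12 livers, Het_M_119 was the only one whose removal changed this call. In that liver the effective length implied by the count and the TPM of Saa1 was the longest of all, and in the other 11 livers it was 0.513 to 0.548 of that length, and for Saa2 0.705 to 0.762. Without Het_M_119 the log2 fold change of Saa1 was 1.16 (edgeR adjusted p = 0.0198), with counts scaled for transcript length it was 1.04 (edgeR adjusted p = 0.0211), and with limma on log2(TPM + 1) it was 1.03 (adjusted p = 0.03), all past the threshold. With Saa1 and Saa2 summed to 1 feature the log2 fold change was 0.84 (SE 0.32, edgeR adjusted p = 0.0857).

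Saa4 moved the other way. Het females were at 110.6, 144 and 122.4 CPM and Het males at 249.5, 142 and 143 CPM, while KO females were at 35.9, 48.5 and 71.6 CPM and KO males at 80.8, 76.0 and 93.5 CPM. Every KO liver lay below every Het liver, with Het_M_119 the highest Het liver and KO_F_108 the lowest KO liver. Saa4 fell, with a log2 fold change of -1.18 (SE 0.19, 2.27-fold lower, edgeR adjusted p = 0.00168).

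Saa3, which is known to be made by macrophages and other cells outside the hepatocyte lineage as well as in liver, was the lowest of the 4 genes. It gave 2.20, 3.75 and 2.7003 CPM in Het females, 2.34, 1.69 and 1.92 CPM in Het males, 2.51, 1.92 and 2.92 CPM in KO females and 1.90, 2.62 and 2.50 CPM in KO males. The groups overlapped in both sexes. The log2 fold change was 0.00 (edgeR adjusted p = 0.996), with no standard error because the F statistic was near 0.

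Summed over the 4 genes, serum amyloid A transcripts came to 83.1 ± 19.3 TPM (SD, n = 6) in Het and 82.8 ± 26.5 TPM (n = 6) in KO livers, a difference far smaller than the spread between livers. The makeup of that sum differed. Saa4 held 66.5 ± 4.07% of it (n = 6) in Het livers, with a range of 60.0 to 71.2%, and 32.5 ± 12.0% (n = 6) in KO livers, with a range of 13.6 to 43.3%. Saa1 and Saa2 together held 23.8 to 32.8% in the Het group and 50.9 to 81.9% in the KO group, so that in every KO liver the inducible pair made up more of the sum than Saa4 did, and in every Het liver less. Within KO livers the pair held 71.9 ± 10.3% in females (n = 3) and 52.4 ± 1.74% in males (n = 3). These sums and shares compare genes per unit of length and carry the uncertainty in how reads of Saa1 and Saa2 were divided. They do not carry over to CPM, where longer transcripts such as that of Saa4 count for more. There Saa4 outweighed the pair in most KO livers, and the sum of the 4 was mostly lower in KO than in Het livers. In KO_M_118, Saa4 was at 80.8 CPM against 17.9 for Saa1 and 5.64 for Saa2. In KO_F_108 the pair outweighed it, at 35.9 and 16.8 CPM against 35.9 for Saa4.

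**Figure D3:**
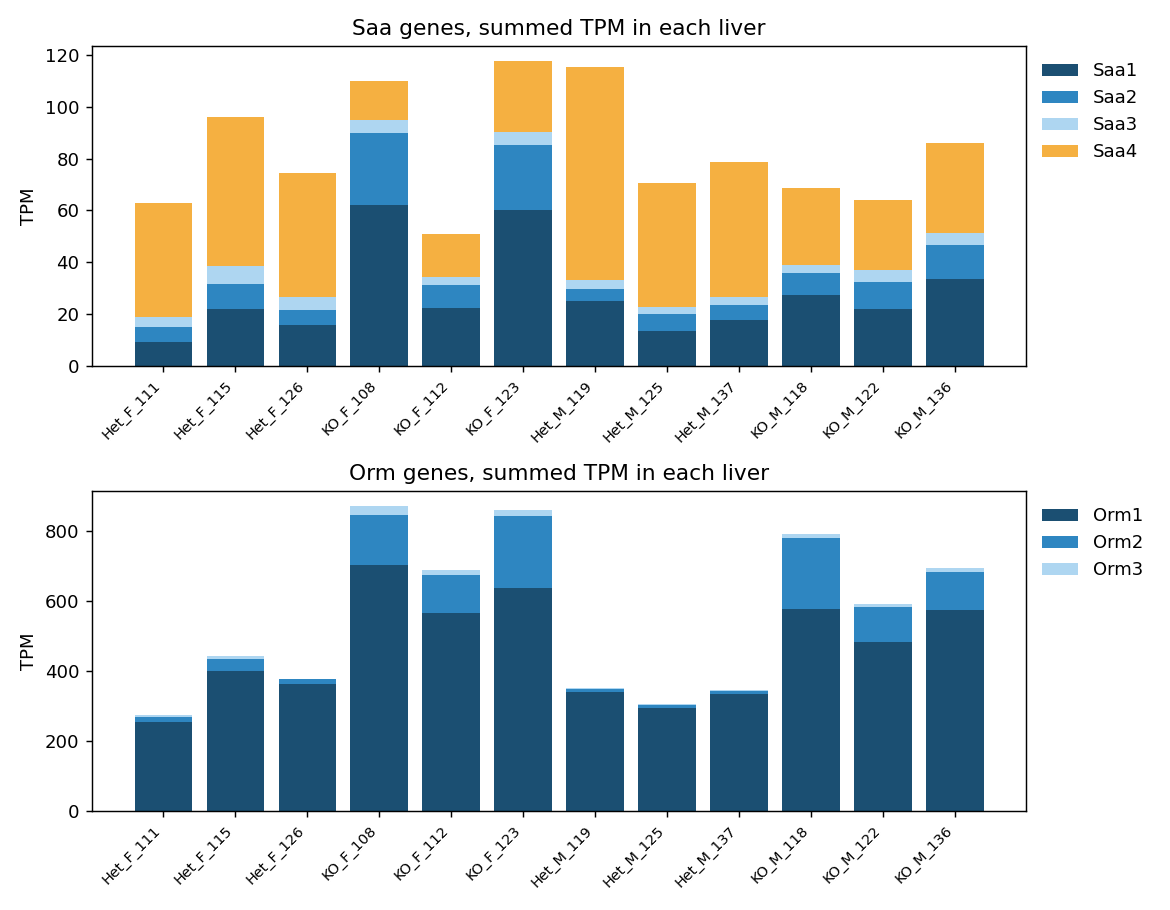
Stacked bars of TPM in each liver, with the 4 serum amyloid A genes above and the 3 orosomucoid genes below, from axes that start at 0. Saa4 is the largest segment in each Het liver and is smaller than Saa1 and Saa2 together in each KO liver, while the sum of the orosomucoid genes is larger in each KO liver (590.1 to 870.0 TPM) than in any Het liver (274 to 443 TPM).

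Orosomucoids, or alpha-1-acid glycoproteins, are plasma glycoproteins of the lipocalin family that bind basic drugs and lipids. Their 3 genes follow each other on the plus strand of chromosome 4 of GRCm39, Orm1 at chr4:63261052-63272189, Orm3 at chr4:63274208-63277748 and Orm2 at chr4:63280686-63284115. No count of Orm1 or Orm2 was whole in any of the 12 livers, and 8 counts of Orm3 were not whole, so their separate values are uncertain as well. The upstream windows of Orm2 and Orm3 (RefSeq, GRCm38.p6) are shown, with the same letters in capitals, and Orm1 had no entry.
Orm2 (chr4:63362199-63362448, plus strand): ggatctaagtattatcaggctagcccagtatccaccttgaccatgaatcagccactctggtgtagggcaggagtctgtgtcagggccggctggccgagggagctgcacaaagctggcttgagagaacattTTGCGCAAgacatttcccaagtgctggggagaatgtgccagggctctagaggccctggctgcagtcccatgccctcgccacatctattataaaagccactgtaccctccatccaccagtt
Orm3 (chr4:63355908-63356157, plus strand): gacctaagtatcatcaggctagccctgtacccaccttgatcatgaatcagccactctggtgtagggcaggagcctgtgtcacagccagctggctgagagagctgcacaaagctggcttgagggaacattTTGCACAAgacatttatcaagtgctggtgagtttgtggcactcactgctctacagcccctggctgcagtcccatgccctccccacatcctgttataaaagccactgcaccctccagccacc

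The windows were identical at 87.2% of 250 columns of the same kind of alignment, with 5 gap bases, and the matches TTGCGCAA in Orm2 at -120 to -113 and TTGCACAA in Orm3 at -121 to -114 lay at the same place in the alignment. Orm2 was at 11.7, 27.6 and 10.8 CPM in Het females, 7.24, 8.65 and 6.75 CPM in Het males, 112.4, 102 and 175 CPM in KO females and 178, 90.9 and 95.2 CPM in KO males. The lowest KO liver, KO_M_122, stood well above the highest Het liver, Het_F_115. Orm2 rose with a log2 fold change of 3.48 (SE 0.30, 11.1-fold, edgeR adjusted p = 6.26e-05). Orm3 was at 3.18, 6.15 and 1.43 CPM in Het females and 3.44, 1.204 and 1.12 CPM in Het males, and at 18.0, 12.4 and 15.6 CPM in KO females and 10.03, 7.55 and 9.17 CPM in KO males. The groups did not overlap, and KO females lay above KO males. Orm3 rose with a log2 fold change of 2.13 (SE 0.36, edgeR adjusted p = 0.00275).

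Orm1, the most abundant of the 3, gave 207, 322 and 298 CPM in Het females, 333, 282 and 298 CPM in Het males, 546, 535 and 543 CPM in KO females and 503, 438 and 497 CPM in KO males. KO females averaged 542 ± 5.59 CPM (SD, n = 3), a narrow spread, and Het_F_111 stood lowest of all livers. The log2 fold change of Orm1 was 0.82 (SE 0.12, edgeR adjusted p = 0.000911). As 1 summed feature the 3 genes rose with a log2 fold change of 1.08 (SE 0.13, edgeR adjusted p = 0.000327). In TPM their sum was 349 ± 58.4 (SD, n = 6) in Het and 749 ± 110.6 (n = 6) in KO livers. Orm2 and Orm3 held 2.57 to 9.50% of that sum in Het livers and 17.4 to 27.2% in KO livers, ranges that do not overlap, and Orm1 remained the largest part in every liver.

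Lcn2, at chr2:32274645-32278264 on the minus strand, codes for lipocalin 2, a secreted protein that binds iron-carrying siderophores of bacteria and is also stored in granules of neutrophils. It had the largest fold change of the 10 genes, and its upstream window (RefSeq, GRCm38.p6) held TTGCTCAA at -216 to -209.
Lcn2 (chr2:32387740-32387989, minus strand): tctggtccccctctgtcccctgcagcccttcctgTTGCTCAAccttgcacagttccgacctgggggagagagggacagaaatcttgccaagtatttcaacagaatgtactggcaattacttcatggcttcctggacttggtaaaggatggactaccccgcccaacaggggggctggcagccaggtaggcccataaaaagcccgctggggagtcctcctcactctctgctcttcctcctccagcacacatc

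Het females were at 3.10, 20.8 and 10.7 CPM and Het males at 2.90, 4.13 and 0.96 CPM, against 191, 184 and 164 CPM in KO females and 123.2, 92.3 and 128 CPM in KO males. The Het livers differed widely among themselves, with Het_M_137 lowest and Het_F_115 highest, while the KO livers lay closer together. Each KO liver lay above each Het liver, and each KO female above each KO male. Lcn2 rose with a log2 fold change of 4.68 (SE 0.48, 25.6-fold, 95% interval 3.61 to 5.74, edgeR adjusted p = 0.000317).

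Because Lcn2 is also a gene of neutrophils and, like Saa3, of macrophages and adipocytes, markers of these cells were read from lists compiled with earlier results of these data known. Of 10 neutrophil markers 6 had enough reads to test, and S100a8, a calcium-binding protein of neutrophils, was the only one that rose (log2 fold change 1.17, SE 0.36, edgeR adjusted p = 0.0374). With 11.8% of all tested genes higher in KO livers, 1 call among 6 is near that share and is not a result about this list. The summed level of the 10 ranged over 1.63 to 7.04 CPM in Het and 3.13 to 6.53 CPM in KO livers, and 2 of the 10, Ly6g and Camp, were at 3 counts or fewer in every liver. That S100a8 call was lost without any 1 of Het_F_111, Het_F_126, Het_M_125, Het_M_137, KO_F_108, KO_M_118, KO_M_122 or KO_M_136, and 2 markers passed without Het_F_115. Of 5 granulocyte precursor markers, Prtn3, which codes for proteinase 3, was the only one with enough reads, at 0 to 0.0864 CPM in Het and 2.63 to 10.9 CPM in KO livers, and it rose (edgeR adjusted p = 9.47e-06), while Mpo, Ctsg and Ms4a3 were at 3 counts or fewer in every liver. Elane was at 0 to 0.0845 CPM in Het and 0.0268 to 0.145 CPM in KO livers. The summed level of these 5 ranged over 0 to 0.151 CPM in Het and 2.72 to 11.03 CPM in KO livers. In KO livers nearly all of that sum came from Prtn3, so it is not a result about this list.

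All 8 macrophage and Kupffer cell markers were tested, and 4 rose: the receptors Marco (log2 fold change 2.98) and Vsig4 (0.87), Cd68 (0.82) and the secreted Cd5l (0.79). Over all tested genes 11.8% rose. The summed level of the 8 markers ranged over 121 to 319 CPM in Het and 167 to 511 CPM in KO livers, which overlap. Within males the sums were 121 to 165 CPM in Het and 167 to 477 CPM in KO livers, which do not overlap. Within females they were 257 to 319 and 315 to 511 CPM, which do. None of the 8 rose within females and 2 rose within males, where 5.15% and 4.11% of all tested genes rose. Over both sexes, 2 rather than 4 passed without any 1 of Het_F_111, Het_F_115, Het_M_125, Het_M_137, KO_F_123 or KO_M_122. Of 5 adipocyte markers only Cfd was tested and it did not pass over both sexes (log2 fold change -1.54, edgeR adjusted p = 0.192). Within males Cfd was called lower in KO livers (-2.86), where 2.8% of all tested genes were lower. Its level was low, at 0 to 0.96 CPM in Het and 0 to 0.0453 CPM in KO livers of both sexes. Adipoq, Lep and Retn were at 3 counts or fewer in every liver, and the sum of the 5 ranged over 0 to 0.992 CPM in Het and 0.0268 to 0.0679 CPM in KO livers. As a check of the labelled tissue, 6 hepatocyte markers were read, which reached a summed 59633 to 81351 CPM in Het and 77385 to 136899 CPM in KO livers. None of the 6 passed in edgeR, where 21.6% of all tested genes did. Among the 6, 2 (Alb and Cps1) had an unadjusted p under 0.05, and 1 passed without any 1 of Het_M_119, Het_M_125, KO_F_108 or KO_F_123. The part of other cell types in the level of any of the 10 genes was not tested. In whole liver, more or fewer cells of a type and more or less RNA per cell cannot be told apart.

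Hp, at chr8:110301759-110305804 on the minus strand, codes for haptoglobin, which binds free hemoglobin in plasma. It was measured at 1329.6, 1841 and 1966 CPM in Het females, 1535, 1998 and 1165 CPM in Het males, 3072, 3593 and 2921 CPM in KO females and 3217, 2722 and 2643 CPM in KO males. All KO livers lay above all Het livers, with the Het male Het_M_125 and the KO male KO_M_136 nearest to each other. Hp rose 1.85-fold (log2 fold change 0.88, SE 0.15, edgeR adjusted p = 0.00272).

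Itih3, at chr14:30630529-30645722 on the minus strand, codes for a heavy chain of the inter-alpha-inhibitor family, proteins that attach to hyaluronan. It gave 928, 933 and 1095 CPM in Het females, 699, 909 and 670.2 CPM in Het males, 3324, 3079 and 2089 CPM in KO females and 1956, 1724 and 2713 CPM in KO males. The lowest KO liver, KO_M_122, was above the highest Het liver, Het_F_126. Itih3 rose 2.84-fold (log2 fold change 1.51, SE 0.16, edgeR adjusted p = 0.000167). Of 4 related genes, which were grouped as inter-alpha-inhibitor partners, Itih5 (log2 fold change 1.85, edgeR adjusted p = 4.33e-05) and Itih2 (0.48, adjusted p = 0.0158) rose, whereas the neighboring heavy chain gene Itih1 (0.14) and Ambp (-0.13), which codes for the light chain bikunin, did not pass. The 2 calls among these 4 genes stand beside the 11.8% of all tested genes that rose. The summed level of these 4 was 2633 to 3246 CPM in Het and 2881 to 3841 CPM in KO livers.

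In TPM, which allows genes to be compared per length, Hp was the most abundant of the 10 in both groups, with a mean of 1026 in Het and 1906 in KO livers, and its range did not meet that of the next gene in either. In Het livers Orm1 (332) and Itih3 (224) followed with overlapping ranges, then Saa4 (55.3), which overlapped neither Itih3 above nor Saa1 below. The other 6, in the order Saa1 (17.2), Orm2 (14.3), Lcn2 (6.96), Saa2 (6.37), Saa3 (4.24) and Orm3 (3.24), each overlapped with the next. In KO livers Itih3 (639) and Orm1 (589.8) overlapped, as did Orm2 (145) and Lcn2 (139), and these pairs were apart from each other and from Saa1 (37.9). Saa1, Saa4 (25.0), Saa2 (15.6) and Orm3 (14.2) each overlapped with the next, and Saa3 (4.23) lay below them all. Saa4 thus stood at place 4 in Het and place 7 in KO livers, and Lcn2 at place 7 and place 5.

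Within females, 7 of the 10 genes were higher in KO livers and 1 was lower, the same genes as over both sexes, where 9.65% of all tested genes passed, 5.15% higher and 4.5% lower. Within males 6 were higher and 1 lower, with Saa2 no longer among them, and 6.9% of all genes passed, 4.11% higher and 2.8% lower. Lcn2 had a log2 fold change of 3.96 in females (SE 0.65, edgeR adjusted p = 0.00896) and 5.40 in males (SE 0.71, edgeR adjusted p = 0.00276), and Orm2 2.95 in females (SE 0.41) and 3.999 in males (SE 0.43). For Itih3 the values were 1.52 and 1.49, for Hp 0.90 and 0.87, for Orm1 0.97 and 0.66, for Orm3 2.08 and 2.19, and for Saa4 -1.27 and -1.09, in females and males. Saa2 had 1.57 in females (edgeR adjusted p = 0.0169) and 0.69 in males (edgeR adjusted p = 0.229). Saa1 had 1.59 in females (edgeR adjusted p = 0.0821) and -0.06 in males (edgeR adjusted p = 0.959), the latter turning to 0.75 without Het_M_119. Saa3 had -0.23 in females (95% interval -0.79 to 0.33) and 0.23 in males (-0.34 to 0.80) and passed in neither.

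The difference between the sexes in the KO effect was tested itself, as an interaction. In edgeR none of the 10 genes passed, against 0.0465% of all genes. Of all genes, 0.0362% passed with a higher and 0.0103% with a lower log2 fold change in males than in females. Of the 10, 1 (Saa1) had an unadjusted p under 0.05, and none passed with DESeq2 or limma. The interaction was -1.65 on the log2 scale for Saa1 (95% interval -3.28 to -0.02), -0.87 for Saa2 (-1.88 to 0.13), 1.05 for Orm2 (-0.14 to 2.23) and 1.44 for Lcn2 (-0.41 to 3.29). A negative value is a lower log2 fold change in males than in females. These values moved with single livers, with Saa1 at -0.83 without Het_M_119, Orm2 at 0.48 without Het_F_115 and 0.67 without KO_M_118, and Lcn2 at 0.71 without Het_F_115. With limma on log2(TPM + 1) the interaction of Saa1 was -0.94 and that of Saa2 -0.54. With 3 livers in a group these intervals are wide, and they do not show that the sexes respond alike. Averaged over the genotypes, none of the 10 passed between males and females in edgeR, where 0.925% of all genes did, 0.434% higher and 0.491% lower in males, 5 had an unadjusted p under 0.05, and DESeq2 called 1. Those 5 were Saa4 (log2 difference of males minus females 0.59, edgeR adjusted p = 0.192), Lcn2 (-1.37, edgeR adjusted p = 0.196), Orm3 (-0.83), Orm2 (-0.62) and Itih3 (-0.39), and the call by DESeq2 was Lcn2 (-1.38, DESeq2 adjusted p = 0.0133).

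Within a sex many calls did not hold when single livers were left out. Lcn2, Orm2 and Itih3 passed in both sexes whichever liver was left out. In females, leaving out Het_F_111 ended the calls of Saa2 (log2 fold change 1.45), Orm3 (1.99) and Hp (0.73), and leaving out Het_F_115 that of Hp (0.95). Without Het_F_126 the calls of Saa2 (1.44), Orm3 (1.69) and Hp (0.99) were lost, without KO_F_108 those of Saa2 (1.35), Saa4 (-1.08), Orm3 (1.94) and Hp (0.91), and without KO_F_112 those of Saa4 (-1.22), Orm3 (2.21) and Hp (0.81). Saa1 passed in females without Het_M_119 (1.58), whose spread the fit shares. In males Orm1 missed the threshold without any 1 of the 6 male livers (log2 fold change 0.60 to 0.72). Saa4 missed it without Het_M_119 (-0.78), KO_M_118 (-1.08), KO_M_122 (-1.03) or KO_M_136 (-1.19). For Orm3 this held without Het_M_125 (1.94), Het_M_137 (1.91), KO_M_118 (2.08), KO_M_122 (2.29) or KO_M_136 (2.16), and for Hp without Het_M_119 (0.84), Het_M_137 (0.68), KO_M_118 (0.77), KO_M_122 (0.90) or KO_M_136 (0.92). None of these values changed sign, and over both sexes the 8 calls held without any single liver.

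Among themselves the 10 genes were compared by the root mean square difference of their log2 CPM profiles over the 12 livers, each centered to a mean of 0, where 0 is an identical profile. Orm1 and Hp were the closest pair (0.237), followed by Hp and Itih3 (0.399). Saa1 and Saa2, near copies, were 0.536 apart, Orm2 and Orm3 0.802, and Lcn2 was nearest to Orm2 (1.03). Saa4 and Lcn2 were the farthest apart (3.29). By the same measure the 3 tested genes most like each member were named, as a description over 12 livers that share their genotypes. Lcn2 was nearest to Akr1b7, Cdhr2 and Chil3 (0.873, 0.897 and 0.956), Orm2 to 5730420D15Rik, Rptoros and Mtmr11 (0.459, 0.549 and 0.569) and Orm3 to A930028N01Rik, Syt12 and Retreg1 (0.436, 0.458 and 0.468). Hp was nearest to Hpx, Lrrc20 and Vat1 (0.179, 0.192 and 0.196), and Hpx codes for hemopexin, the plasma protein that binds heme. Orm1 was nearest to Rab4b, Plekhm2 and Tnfrsf1a (0.146, 0.164 and 0.165), and Itih3 to Ano10, Cyp3a13 and Ttn (0.204, 0.205 and 0.233). For Saa4 the nearest were Pecr, Otc and 5730414N17Rik (0.253, 0.265 and 0.266). For Saa1 they were Prob1, Il1r1 and Gm44873 (0.382, 0.432 and 0.474), for Saa2 Slc1a5, Gm44956 and Elf3 (0.291, 0.328 and 0.329) and for Saa3 Cyth3, Zfp72 and Rnf113a1 (0.154, 0.174 and 0.175).

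Other genes of the acute phase response and its signaling were read from lists compiled in the same way, and those named below are the 4 with the smallest p in each list plus a few well-known genes added after their values were seen. Of 21 other positive acute phase genes, 12 rose and none fell in KO livers, with a median log2 fold change of 0.73, where 11.8% of all tested genes rose and 9.8% fell. The leading genes were Lrg1, a leucine-rich glycoprotein of plasma (1.61, SE 0.18), Hpx (0.98, SE 0.12), the protease inhibitor Serpina3n (1.65, SE 0.21) and Cp, the copper carrier ceruloplasmin (1.19, SE 0.16). Within females 5 of the 21 rose and within males 7, where 5.15% and 4.11% of all tested genes rose, and none fell in either sex. The summed level of the 21 was 20538 to 29360.4 CPM in Het and 34509 to 50321 CPM in KO livers. Of 11 negative acute phase genes, known to be lowered in the response, 2 fell, Igfals (-1.23), which codes for the acid-labile subunit that carries insulin-like growth factors, and Ttr (-0.81), which codes for the thyroxine carrier transthyretin. Another 3 of that list rose, among them Ahsg (0.51), which codes for fetuin-A, and Trf (0.62), the iron carrier transferrin, with Fetub as the other (0.38). The median of the 11 was 0.04, and 2 of 11 falling and 3 of 11 rising stand beside the 9.8% and 11.8% of all tested genes. Their summed level was 62565 to 91401 CPM in Het and 88871 to 160143 CPM in KO livers, most of it from Alb, the gene of albumin, at 35119 to 58989 CPM in Het and 55069 to 108632 CPM in KO livers, which did not pass (log2 fold change 0.57, edgeR adjusted p = 0.0547).

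Of 8 cytokine genes, 4 were tested (Il1a, Il1b, Tnf and Lif) and none passed in edgeR, nor had any an unadjusted p under 0.05. Il1b had a log2 fold change of 0.41 (SE 0.41) and Tnf 0.22 (SE 0.33). Il6, Osm, Il11 and Il22 had too few reads to test, and the 8 together gave 2.88 to 8.03 CPM in Het and 3.51 to 9.65 CPM in KO livers. Of 8 cytokine receptor genes, the interleukin 1 receptor Il1r1 (1.27), the tumor necrosis factor receptor Tnfrsf1a (0.78) and the interleukin 22 receptor Il22ra1 (2.13) rose, while Il1rap (-1.45), the accessory chain of interleukin 1 receptors, fell. The interleukin 6 receptor Il6ra (0.35) and Il6st (-0.04) did not pass. The median of these 8 was 0.16, and with 4 calls among 8 genes, as with 4 among 14 in the next list and 3 among 7 in the last, the share called over all tested genes was 21.6%. Of 14 signal transducers and transcription factors, Stat3 (1.04, SE 0.14), its feedback inhibitor Socs3 (1.64, SE 0.42) and Nfkbiz (0.60, SE 0.14), a nuclear regulator of NF-kB, rose, and the hepatocyte factor Cebpa (-1.10, SE 0.15) fell, with a median of 0.06. The 4 calls among 14 are close to the share over all genes and are not a result about this list. Cebpb (0.23) and Cebpd (1.19, SE 0.53) did not pass. Of 7 receptors and clearance genes, Scarb1 (0.29), a lipoprotein receptor that binds serum amyloid A, rose, and Lrp2 (-1.43) and Slc22a17 (-0.91), both uptake receptors for lipocalin 2, fell, with a median of 0.09. Those 3 calls were unstable, since none of the 7 genes passed without any 1 of Het_F_111, Het_F_126, KO_F_123, KO_M_118 or KO_M_136, and 1 passed without Het_M_125, Het_M_137 or KO_F_108.

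**Figure D4:**
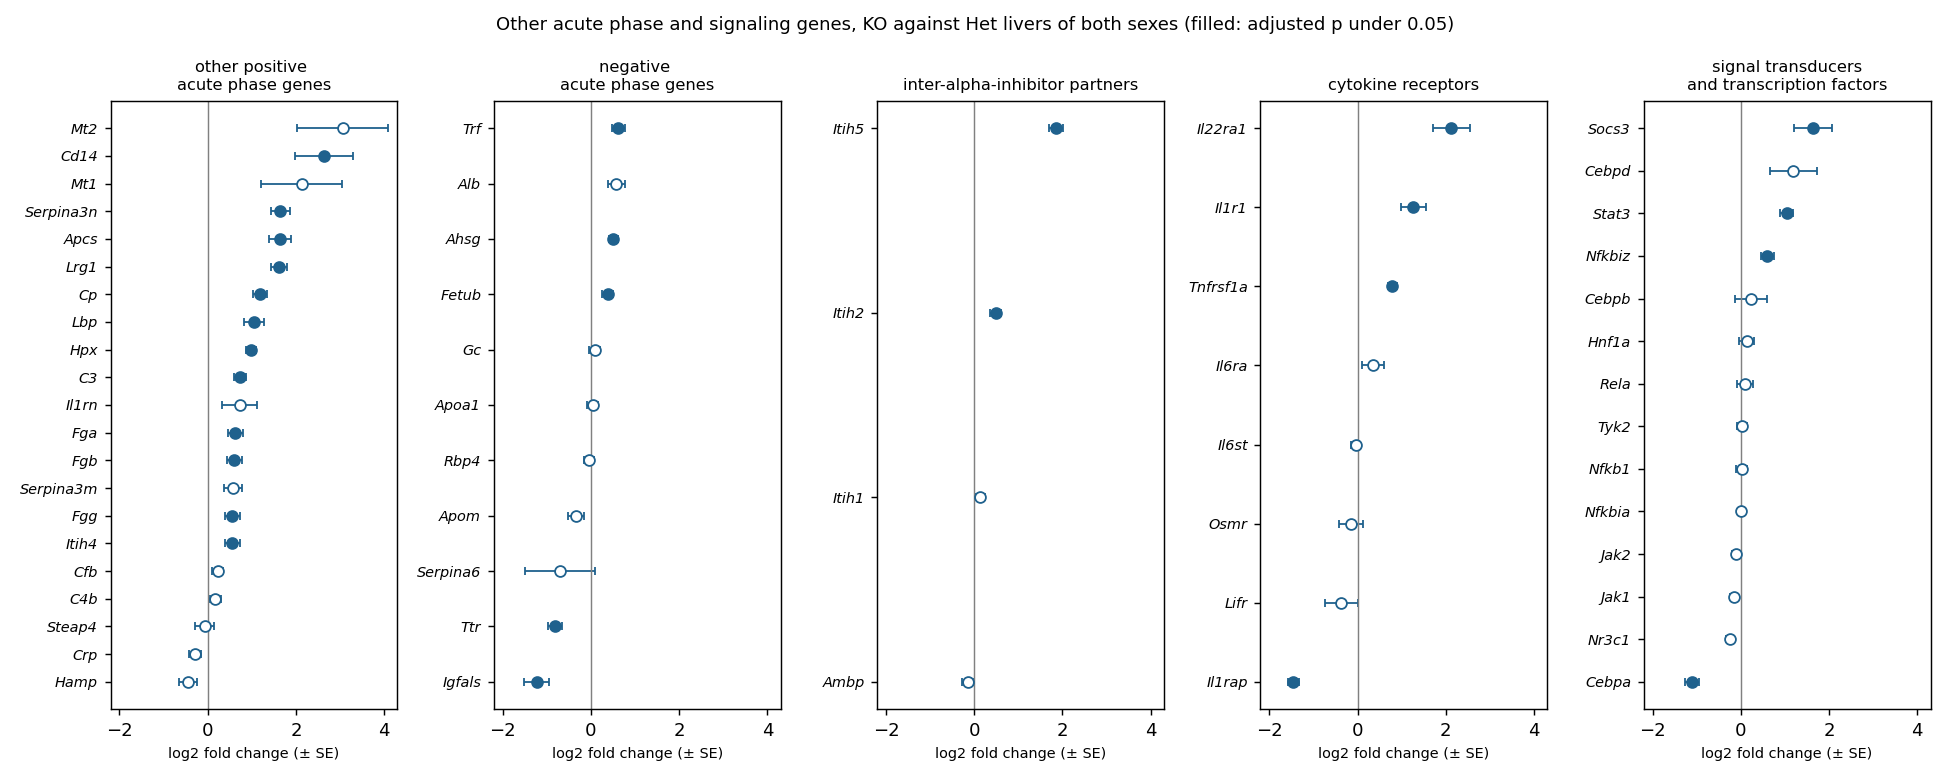
Log2 fold changes of KO against Het over both sexes with standard errors (none for Nfkbia, whose F statistic was near 0) for 5 lists of acute phase and signaling genes, where filled symbols passed an adjusted p of 0.05. Among the other positive acute phase genes 12 filled symbols lie to the right of 0 and none to the left, while the remaining lists hold filled symbols on both sides except for the inter-alpha-inhibitor partners.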

How the data were processed

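Total RNA of 12 livers was depleted of ribosomal RNA, made into stranded libraries and sequenced. Per the paper and the labels, the authors ran the nf-core RNA-seq pipeline with STAR 2.7.9a and Salmon 1.10.1 on GRCm39 and deposited estimated counts per gene, which divide reads shared between genes, and TPM, which sums to 1 total in every liver and keeps no depth. A length-scaled table of estimated counts that the authors deposited served as an alternative, and another, scaled to library size only, was not used. The authors' estimated counts were rounded to whole numbers here. Genes with a minimum of 5 reads in 3 or more livers, after scaling to the median library, entered edgeR 4.0.16 (R 4.3.3) with TMM scaling, a prior count of 2 and robust quasi-likelihood F tests on the 4 group means. The filter was read from the counts before rounding. P-values were adjusted by the Benjamini-Hochberg method over all 19350 genes tested, at a threshold of 0.05. Standard errors were taken from the F statistic and the log2 fold change, where F was at least 0.001, and 95% intervals used the t quantile at the fit's degrees of freedom.

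The samples were grouped by the labels' genotype and sex, and the labels name no batch. The mice are separate animals. The 10 genes and all lists were chosen with earlier results of these data known, so no set test and no p over a list is given. Named were the 10 genes, up to 4 genes of each other list with the smallest p over both sexes, and for each of the 10 the 3 tested genes whose log2(CPM + 0.1) profiles, centered over the 12 livers, had the smallest root mean square difference from its own, and the few further genes named were picked after their values were seen. Alternatives were counts without rounding, length-scaled counts, no filter or at least 10 reads in every liver, relative log expression or library size scaling, the older quasi-likelihood method, estimation without robustness, DESeq2 1.42.0, limma 3.58.1 on log2(TPM + 1) and log2(TPM + 0.1), near copies summed, each sex fitted alone, a threshold of 0.01 and each liver left out. Gene positions came from GENCODE M39 on GRCm39 and upstream sequences from RefSeq on GRCm38.p6, aligned with Biopython 1.88 (match 1, mismatch -1, gap opening -3, extension -1, end gaps free). The edgeR fit was run on simulated counts with known changes, and the other steps were not tested in this way.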

Additional observations from a re-analysis of the deposited data

Results flagged for a closer look

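Livers far from the rest of their group were looked for in 20 groups of 6 livers, the Het and the KO livers for each of the 10 genes in log2 CPM. The gap of the highest or lowest liver to its nearest neighbor, divided by the range of the group, passed the critical value of 0.625 in 2 of them, and chance passes about 1 in 20 groups. For Saa4 the Het liver Het_M_119 stood above the other Het livers with a ratio of 0.672. This is the liver in which Saa1 was also high and in which the implied effective lengths of Saa1 and Saa2 were longest. Without it the log2 fold change of Saa4 over both sexes was -1.04, against -1.18 with it. For Orm1 the Het liver Het_F_111 stood below the other Het livers with a ratio of 0.650. Without it the log2 fold change of Orm1 over both sexes was 0.72, against 0.82 with it.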

How the results depend on the processing

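No paired analysis was made, because the mouse numbers in the labels all differ between the groups and the labels name no litters. The paper calls the controls littermates, so any litter structure was left out of the fits. Over both sexes, the 8 calls among the 10 genes kept their direction and passed in every alternative in which the gene stood alone. With near copies summed the 10 genes became 7 features, of which 5 passed over both sexes and 5 in females, a change that comes from that construction. At a threshold of 0.01, 4 of the 10 passed in females and 3 in males, and with each sex fitted alone 3 passed in females, namely Orm2, Lcn2 and Itih3. Without the filter on low counts Orm3 missed the threshold in females (2.07) and males (2.20). DESeq2 called 1 gene between the sexes. As a share of all estimated counts the 10 genes made up 0.301% in Het and 0.637% in KO livers.

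Signs changed only for values that did not pass. Saa3 over both sexes was -0.00835 without rounding, -0.000941 with relative log expression scaling, -0.000925 with DESeq2 and -0.00844 with near copies summed. Saa1 in males was 0.45 with length-scaled counts, 0.0091 with library size scaling, 0.56 and 0.59 with limma and 0.11 with near copies summed. The interaction was 0.14 for Hp and 0.12 for Itih3 with library size scaling, and 0.16 and 0.14 with limma at either pseudocount. Saa1 between the sexes was -0.14 with length-scaled counts, -0.20 with limma at either pseudocount and -0.0467 with near copies summed. The cause was not tested.

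Leaving out each liver in turn gave 8 to 9 calls over both sexes, 4 to 9 in females and 3 to 7 in males, and 0 for the interaction and between the sexes. Among the 21 other positive acute phase genes the calls ranged from 8 to 13, against 12 with all livers. They ranged from 4 to 6 among negative acute phase genes, 4 to 5 among cytokine receptors and 3 to 5 among signal transducers and transcription factors. The calls ranged from 0 to 3 among receptors and clearance genes, 0 to 2 among neutrophil, 2 to 6 among macrophage and 0 to 1 among hepatocyte markers. Log2 values that changed sign ranged from -0.088 to 0.108 for Saa3 over both sexes, -0.39 to 0.75 for Saa1 in males, -0.32 to 0.26 for Saa1 and -0.12 to 0.033 for Orm1 between the sexes, and for the interaction from -0.0209 to 0.50 for Saa4, -0.53 to 0.80 for Orm3, -0.21 to 0.19 for Hp and -0.24 to 0.12 for Itih3. The interaction kept its sign but ranged from -1.997 to -0.83 for Saa1, -1.203 to -0.66 for Saa2, 0.48 to 1.33 for Orm2 and 0.71 to 1.90 for Lcn2. With 3 livers in a group, effects within a sex and their differences have wide intervals, and over both sexes Lcn2 and Saa1 had larger standard errors than the other genes.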
